A study of Mus musculus with 6 samples.

Results

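The proteasome genes of the mouse were followed in microglia, the resident macrophages of the brain, purified from the cerebellum. Members were all rows of the deposited count table with a symbol of a fixed form and 10 or more counts over the 6 libraries. The symbol begins with Psm, carries a letter of a, b, c, d, e or g and ends in a number, with or without a final b. This gave 47 of 23491 gene symbols. The member with the fewest counts, Psma8, had 483 over the 6 libraries, and 0 matching symbols lay under the minimum. All 47 passed the filter on low counts and were tested. The 6 members of the interferon-inducible set (Psmb8, Psmb9, Psmb10, Psme1, Psme2 and Psme2b) were set against the other 41, which are called constitutive here although Psma8 is known mainly from testis.

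All mice carried the Fmr1 knock out genotype, a model of fragile X syndrome, in both groups, and no library from a wild-type mouse was used. The control group of 3 libraries is labelled Saline in the treatment field and sham in the titles. The other 3 libraries came from mice injected intraperitoneally with poly(I:C), synthetic double-stranded RNA used as a stand-in for viral RNA. The labels used here state no age, dose, interval after injection or disrupted part of Fmr1. After perfusion, cerebellar cells were freed of myelin on Percoll and enriched on CD11b magnetic beads; CD11b is also carried by neutrophils, monocytes and other macrophages. Fmr1 reads were still counted, at 37.8, 38.6 and 40.5 CPM with saline and 62.6, 43.9 and 54.5 CPM with poly(I:C) (adjusted p = 0.167), and without wild-type libraries the genotype label could not be checked here.

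The proteasome is the barrel-shaped protease that degrades ubiquitin-tagged proteins. Its core particle, the 20S, is built of rings of alpha subunits, which gate the entrance, and rings of beta subunits, of which beta1 (Psmb6), beta2 (Psmb7) and beta5 (Psmb5) cut peptide bonds. Interferons, above all interferon gamma, induce beta1i (Psmb9), beta2i (Psmb10) and beta5i (Psmb8), which take the place of these catalytic subunits in newly made particles, the immunoproteasome. The 19S cap recognises ubiquitin, unfolds substrates and feeds them into the core. PA28, a ring of Psme1 and Psme2 proteins, is another cap, is itself interferon-inducible, and favours the release of peptides used by MHC class I.

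The label was checked with markers. Summed microglial markers (11 of 12 genes analysed here) stood between 38382 and 44161 CPM (counts scaled to library size and composition) after saline and between 30270 and 41576 CPM after poly(I:C). Cx3cr1, P2ry12, Tmem119 and Itgam, genes that microglia express strongly, were at mean levels between 2232 and 6365 CPM in either group, and none of them was called. Other cells were present in unequal amounts. The sum of 11 neutrophil markers was 21404 CPM in saline replicate 1, and 3651 and 3596 CPM in saline replicates 2 and 3. It was between 1775 and 3099 CPM after poly(I:C), lower in each of these libraries than in any saline library. The sum of 10 choroid plexus markers was highest in poly(I:C) replicate 1, at 19461 CPM, and between 3993 and 9339 CPM in the other 5 libraries. Among the genes of the 10 marker lists that were analysed here, none was at 0 in all libraries. In these bulk samples fewer cells of a type and less RNA per cell cannot be told apart.

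Transcripts of the PA28 cap rose with poly(I:C), while no subunit of the core or the 19S cap passed the test. In edgeR's quasi-likelihood test 3 of 47 members were called higher (Psme1, Psme2 and Psme2b) and 0 lower, beside 0.883% of all tested genes called higher, 0.0747% called lower and 0.957% in either direction. At an unadjusted p under 0.05 there were 8 of the 47, beside 21.3% of all tested genes, and these were 4 of the 6 interferon-inducible and 4 of the 41 constitutive members. The median log2 fold change was 0.65 over the 6 interferon-inducible members, 0.05 over the 41 constitutive members and 0.0098 over all 14727 tested genes. Of the 6, 4 had CPM values that were higher in every poly(I:C) library than in any saline library, beside 14% of all tested genes. Of the 41, 6 were separated in that direction and 2 were separated as lower, beside 14.3% of all tested genes (28.4% in either direction).

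**Figure D1:**
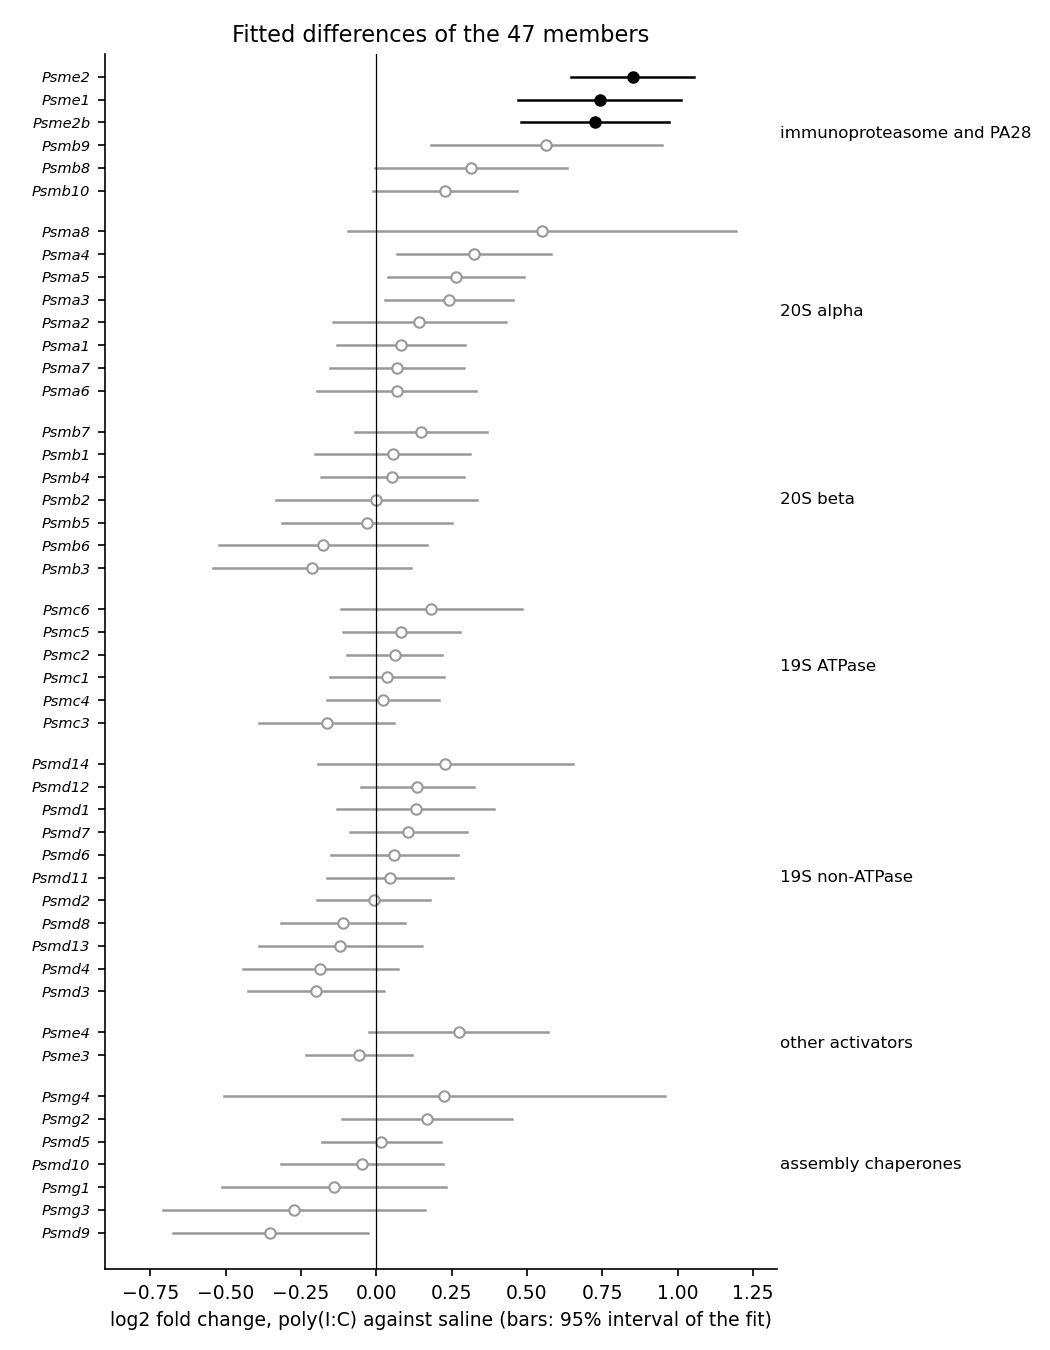
Fitted log2 fold change of each of the 47 members, poly(I:C) against saline (horizontal axis), with bars for the 95% interval and members grouped by role. Filled black points passed the test (Psme2, Psme1 and Psme2b), and open grey points did not.

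Psme2, the beta subunit of PA28, had the largest difference of the 47 members. Its level was 52.6, 48.0 and 44.6 CPM in saline replicates 1 to 3 and 89.4, 86.8 and 85.6 CPM in poly(I:C) replicates 1 to 3. The groups lay far apart and the poly(I:C) libraries were close to each other. The difference was 1.80-fold (log2 0.85, SE 0.09, adjusted p = 0.00707).

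Psme1, the alpha subunit of PA28, stood at 97.4, 76.6 and 76.6 CPM in the saline libraries and at 132, 144 and 143 CPM in the poly(I:C) libraries. All poly(I:C) values were above the highest saline value, which was that of saline replicate 1. Psme1 was 1.67-fold higher (log2 0.74, SE 0.11, adjusted p = 0.0410), just inside the threshold, and with RLE scaling its adjusted p was 0.0526. The ratio of Psme2 to Psme1 reads was between 0.540 and 0.627 after saline and between 0.601 and 0.675 after poly(I:C), so these ranges overlapped.

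Psme2b is a retroposed copy of Psme2. It had 36.9, 30.2 and 31.2 CPM after saline and 53.0, 54.8 and 54.7 CPM after poly(I:C), a 1.65-fold difference (log2 0.73, SE 0.10, adjusted p = 0.0308). Over an alignment of 794 bases, the GENCODE M21 transcripts of Psme2 and Psme2b were 99.4% identical, with 5 mismatches and a longest identical stretch of 341 bases. Reads within identical stretches cannot be assigned to 1 copy, so the 3 calls among PA28 genes are not 3 separate measurements. With the counts of Psme2 and Psme2b summed, an alternative chosen after seeing the data, the log2 difference was 0.80 (SE 0.09, adjusted p = 0.00907). Psme2b also overlaps 9930111J21Rik1 on the same strand in GENCODE M21, and that gene was at 30.2 ± 1.09 CPM after saline and 42.3 ± 1.46 CPM after poly(I:C) (SD, n = 3 each, adjusted p = 0.0639).

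These calls depended on single libraries, while the direction did not. Psme2 was called in 3 of the 6 fits that left out 1 library, and Psme1 and Psme2b in 1 each, the fit without saline replicate 1. No member was called when the second or the third saline library or the third poly(I:C) library was left out, where the adjusted p of Psme2 was 0.0536, 0.0531 and 0.0610. Without poly(I:C) replicate 1 or 2 only Psme2 was called. Over the 6 fits the log2 difference of Psme2 stayed between 0.79 and 0.91, that of Psme1 between 0.68 and 0.86, and that of Psme2b between 0.67 and 0.81.

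**Figure D2:**
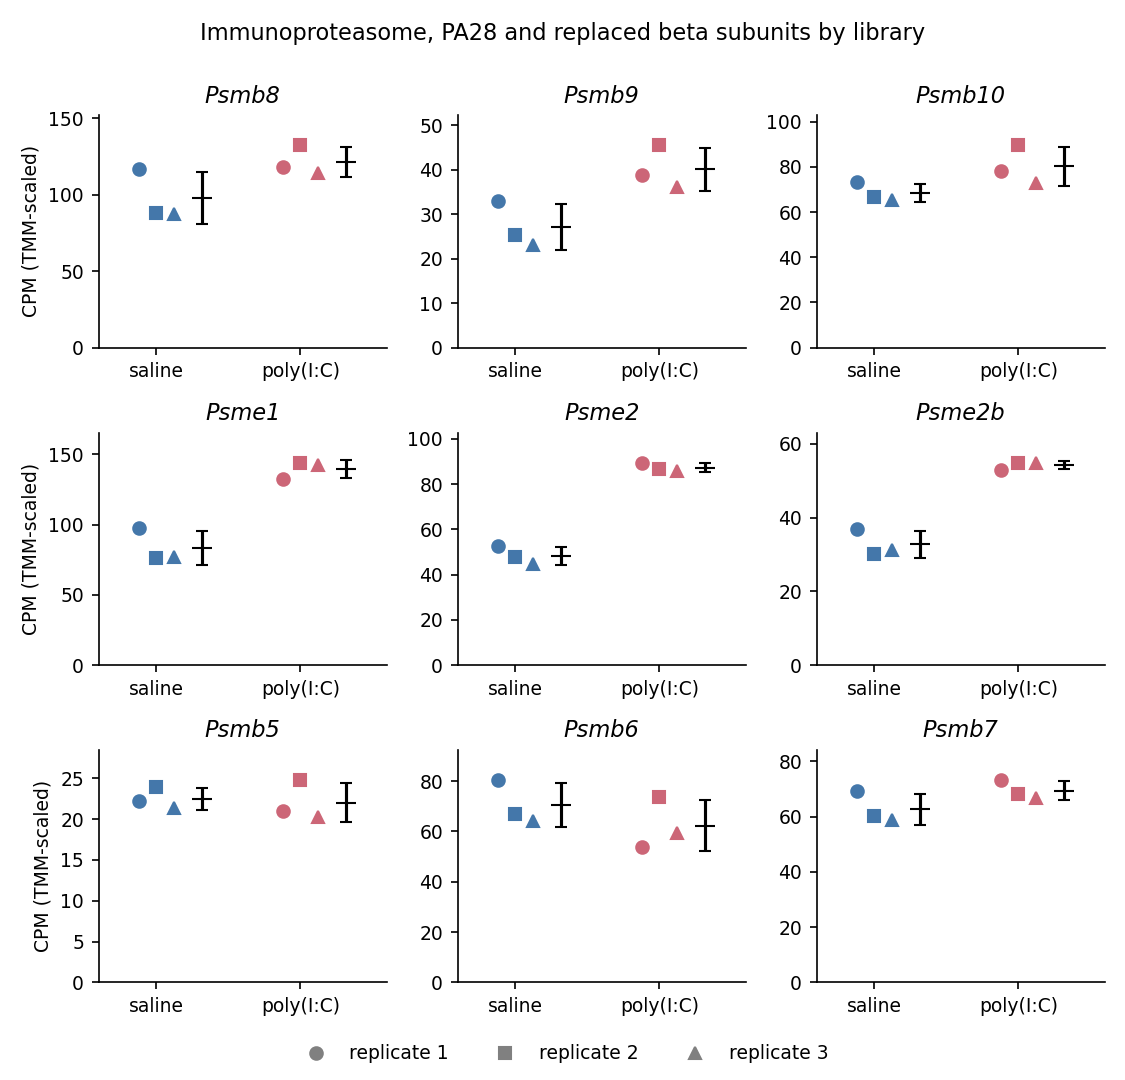
TMM-scaled CPM of the 6 interferon-inducible members and of Psmb5, Psmb6 and Psmb7 in each library (marker shape gives the replicate), with mean and SD (n = 3) in black. Psme1, Psme2, Psme2b and Psmb9 separate the groups, whereas Psmb8, Psmb10 and Psmb7 overlap through saline replicate 1, and the values of Psmb5 and Psmb6 are intermixed.

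The catalytic subunits of the immunoproteasome had smaller differences, and 0 of 3 were called. Psmb9 (beta1i) was at 32.9, 25.2 and 23.1 CPM after saline and at 38.7, 45.5 and 36.0 CPM after poly(I:C). The groups did not overlap, and the fitted difference of 1.48-fold (log2 0.57, SE 0.16) missed the threshold (adjusted p = 0.161). Psmb8 (beta5i) was at 117, 88.3 and 87.2 CPM after saline and at 118, 132 and 114 CPM after poly(I:C). Saline replicate 1 reached the poly(I:C) range, and the log2 difference was 0.31 (SE 0.13, adjusted p = 0.237). Psmb10 (beta2i) was at 73.1, 66.6 and 65.6 CPM after saline and at 78.4, 89.5 and 72.7 CPM after poly(I:C), with a log2 difference of 0.23 (SE 0.10, adjusted p = 0.246). Its lowest poly(I:C) value lay just under its highest saline value.

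Saline replicate 1 had the highest saline value in all 6 interferon-inducible members, and it also held the highest marker sums for neutrophils, for T and NK cells (41.8 CPM, with 11.2 and 13.1 CPM in saline replicates 2 and 3) and for B cells (23.8 CPM, with 13.6 and 13.2 CPM). It was also the highest saline library for 29 of the 41 constitutive members. Without saline replicate 1 the log2 difference was 0.46 for Psmb8 (adjusted p = 0.151), 0.72 for Psmb9 (adjusted p = 0.0989) and 0.27 for Psmb10 (adjusted p = 0.313). Leaving out any other single library gave lower values for Psmb8 and Psmb9, down to 0.24 and 0.46 without saline replicate 3. Psmb10 ranged from 0.14 without poly(I:C) replicate 2 to 0.29 without poly(I:C) replicate 3. With saline replicate 1 and poly(I:C) replicate 1 both left out, Psmb8 (0.51, adjusted p = 0.0408) and Psmb9 (0.78, adjusted p = 0.0343) were called and Psmb10 was not (0.32, adjusted p = 0.198). That fit rests on 2 libraries a group and called 569 genes in all. The part of RNA from these cells and from choroid plexus in these values was not tested beyond leaving out the libraries.

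The subunits that the inducible ones replace showed no called difference. Psmb5 (beta5) was at 22.2, 24.0 and 21.3 CPM after saline and 21.1, 24.8 and 20.2 CPM after poly(I:C), and the 95% interval of its log2 difference ran from −0.31 to 0.25 (adjusted p = 0.897). Psmb6 (beta1) was at 80.3, 67.0 and 64.0 CPM after saline and 53.7, 73.6 and 59.5 CPM after poly(I:C), with an interval from −0.52 to 0.17 (adjusted p = 0.484). Psmb7 (beta2) was at 69.2, 60.2 and 58.8 CPM after saline and 73.2, 68.3 and 67.0 CPM after poly(I:C), with an interval from −0.07 to 0.37 (adjusted p = 0.367). The groups overlapped for all 3 genes.

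Read ratios within a library compare each inducible subunit with its counterpart and do not depend on the scaling between libraries. There were 3 pairs, and with 3 libraries a group the smallest p an exact permutation test can give is 0.1. Psmb9 reads were 0.410, 0.377 and 0.361 of Psmb6 reads after saline and 0.721, 0.617 and 0.605 after poly(I:C), a 1.69-fold shift with no overlap (exact permutation p = 0.1, adjusted p = 0.15 over the 3 pairs). Psmb8 reads were 5.28, 3.69 and 4.09 times Psmb5 reads after saline and 5.59, 5.33 and 5.63 times after poly(I:C), a 1.28-fold shift (exact permutation p = 0.1, adjusted p = 0.15). The gap there was narrow, since saline replicate 1 lay just under the lowest poly(I:C) library. Psmb10 reads were 1.06, 1.11 and 1.12 times Psmb7 reads after saline and 1.07, 1.31 and 1.09 times after poly(I:C), which overlapped (1.05-fold, exact permutation p = 0.8, adjusted p = 0.8), and without poly(I:C) replicate 2 the log2 difference of that ratio was −0.020.

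Summed over the 3 pairs, Psmb8, Psmb9 and Psmb10 held 56.5%, 54.4% and 55.0% of the reads of the 6 genes after saline and 61.3%, 61.6% and 60.3% after poly(I:C). The inducible subunits thus already took over 50% of these reads in saline, as a share of reads and not of molecules. In GENCODE M21 the inducible transcript was the longer of each pair. Lengths were 1628 bases for Psmb8 and 899 for Psmb5, 1352 for Psmb9 and 798 for Psmb6, and 1311 for Psmb10 and 1160 for Psmb7. Over 50% of reads therefore did not mean over 50% per transcript length in saline. Levels per kilobase there were 59.9 CPM for Psmb8 and 52.2 CPM for Psmb10 (means), and between 17.1 and 24.4 CPM for Psmb9. The subunits they replace stood at 88.3 CPM for Psmb6 and 54.1 CPM for Psmb7 (means), and between 23.7 and 26.6 CPM for Psmb5. On these lengths the inducible transcripts together were the less abundant set in saline.

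**Figure D3:**
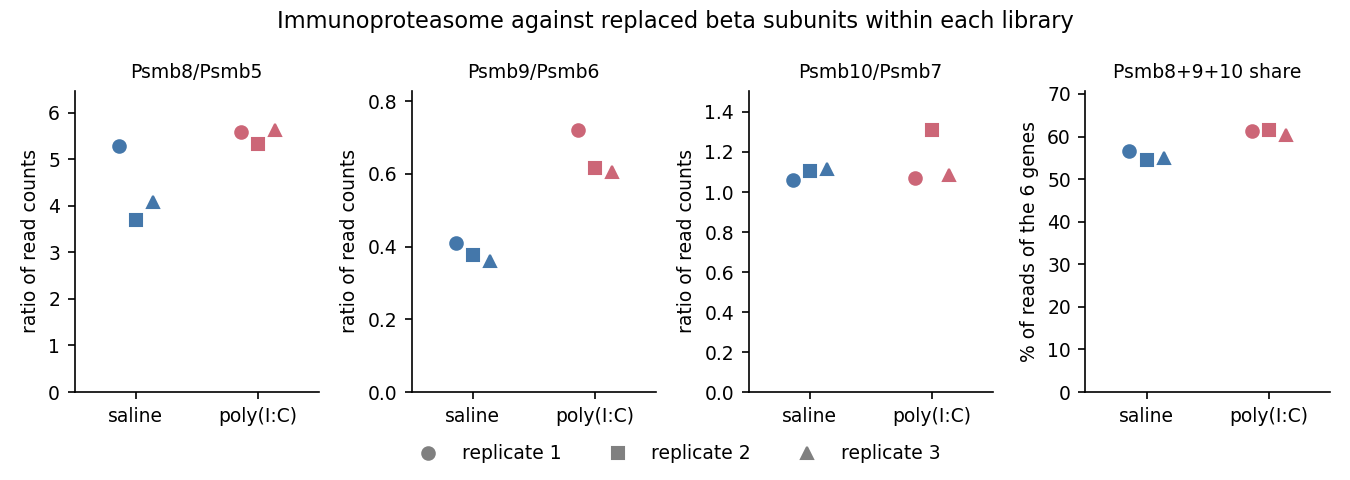
Ratio of read counts of each inducible beta subunit to the subunit it replaces, by library, and the share of Psmb8, Psmb9 and Psmb10 in the reads of the 6 genes (right, percent). The Psmb9 to Psmb6 ratio separates the groups (at most 0.410 in saline, at least 0.605 in poly(I:C)), and the Psmb10 to Psmb7 ratio does not.

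Per kilobase of transcript, on lengths from GENCODE M21, levels could be compared between genes. In saline Psmb8 stood at 59.9 ± 10.4 CPM per kb and Psmb5 between 23.7 and 26.6, so the inducible beta5i transcript was the more abundant of that pair in every saline library. The order was the opposite for the beta1 pair, with Psmb9 between 17.1 and 24.4 and Psmb6 at 88.3 ± 10.9 CPM per kb. Psmb10 and Psmb7, at 52.2 ± 3.14 and 54.1 ± 4.85 CPM per kb, did not differ beyond their spread. Psme1 moved from rank 5 to rank 1 of the 47 members, at 75.1 ± 10.8 and 126 ± 5.66 CPM per kb, and Psme2 from rank 18 to rank 2, at 50.3 ± 4.17 and 90.7 ± 2.01 CPM per kb (SD, n = 3 each). Psmb8 went from rank 10 to rank 5 and Psmb9 from rank 36 to rank 33. Neighbouring ranks often differed by less than the SD, and a transcript with another 3′ end than the annotated one would change its level here. Reads in identical stretches of Psme2 and Psme2b cannot be assigned, so the levels and ranks of both depend on how such reads were counted.

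**Figure D4:**
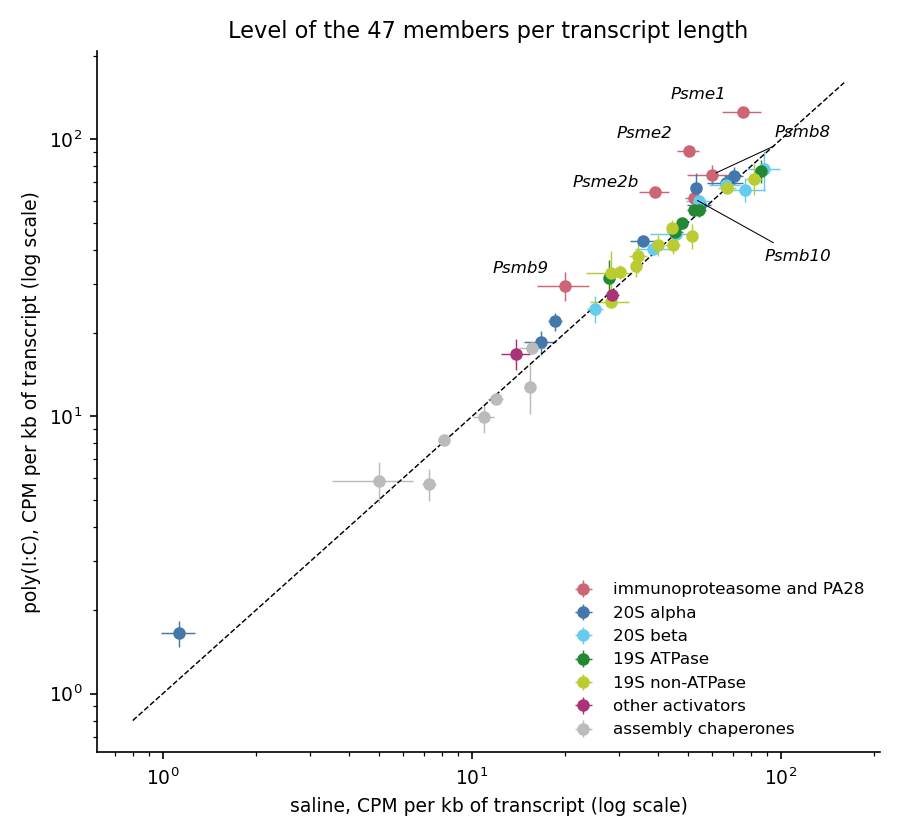
Mean level of each member in saline (horizontal) and poly(I:C) (vertical), in CPM per kb of transcript on log axes, with SD bars (n = 3) and a dashed line of equality; colours give the role. Psme1, Psme2 and Psme2b stand above the line, as do Psmb9 and, at the low end, Psma8, which were not called. Most other members lie nearer to it.

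Short stretches of the RefSeq promoter windows (250 bases before to 50 after the annotated start, build GRCm38.p6) are shown because they hold, on either strand, letters known as response elements of the pathways at hand. The motifs shown are GAAA followed after 2 free bases by another GAAA, the core of the interferon-stimulated response element bound by IRF factors, and TGACNNNGC, the antioxidant response core bound by NRF1 and NRF2, which drive constitutive proteasome genes. Windows were found for 39 of 47 members, including all 6 inducible ones; Psma8, Psmb1, Psmb2, Psmb7, Psmc3, Psmd3, Psmd7 and Psmg2 had none. Capitals mark the match, and each line is written in the direction of the gene.
Psme1 (interferon core on the other strand, chr14:55578493-55578522, + strand): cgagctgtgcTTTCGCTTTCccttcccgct
Psmb3 (interferon core on the other strand, chr11:97703261-97703290, + strand): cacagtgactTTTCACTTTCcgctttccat
Psmd4 (interferon core on the other strand, chr3:95042675-95042704, - strand): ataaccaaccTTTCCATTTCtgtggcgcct
Psmd9 (interferon core, chr5:123228021-123228050, + strand): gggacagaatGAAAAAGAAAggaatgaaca
Psmg4 (interferon core, chr13:34162969-34162998, + strand): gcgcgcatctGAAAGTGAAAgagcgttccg
Psmb5 (antioxidant core, chr14:54618023-54618052, - strand): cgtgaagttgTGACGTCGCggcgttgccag
Psmb6 (antioxidant core, chr11:70525338-70525367, + strand): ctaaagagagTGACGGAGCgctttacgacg

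The interferon core was found in 5 of the 39 members, against 3.44% of all 32851 windows. Of the inducible members only Psme1 held it, just after the annotated start, while Psmb3, Psmd4, Psmd9 and Psmg4, none of which was called, held it too. The antioxidant core was in 6 members, none of them inducible (Psmb5, Psmb6, Psmc6, Psmd12, Psmd9 and Psme4), against 12.4%. A member was counted if any window of its symbol matched, while the percentages count single windows, so the units differ. A match describes letters in a window and shows no binding.

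Psmb8 and Psmb9, and likewise Psme1 and Psme2, sit close together among other genes, and these neighbours differed in their values. In the MHC region, RefSeq places Psmb9, Tap1, Psmb8 and Tap2 in a row. Tap1, one chain of the transporter that carries proteasome products into the endoplasmic reticulum, went from 67.4, 50.1 and 57.0 CPM to 121, 117 and 115 CPM (2.02-fold, log2 1.01, SE 0.12, adjusted p = 0.0122). Its gene starts back to back with Psmb9, and the 5′ ends overlap in GENCODE M21, so reads there cannot be assigned without strand. Tap2, the other chain, was at 112 ± 9.11 and 128 ± 0.52 CPM and was not called (log2 0.19, adjusted p = 0.236). Near Psme1 and Psme2 lie Emc9, between them, and Rnf31 and Irf9 beyond Psme2. Irf9, the DNA-binding subunit of the type I interferon complex ISGF3, was 2.22-fold higher (adjusted p = 0.00145), whereas Emc9 was at 9.06 ± 1.46 and 9.60 ± 2.07 CPM (adjusted p = 0.840) and Rnf31 had a log2 difference of 0.37 (adjusted p = 0.156).

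The alpha ring had 8 members, 0 of them called, all with a positive log2 difference between 0.07 and 0.55 and a median of 0.19. Of all 14727 tested genes, 0.957% were called in either direction and 7520 had a positive difference. Psma4 was at 63.2, 59.7 and 63.1 CPM after saline and 88.9, 69.4 and 74.5 CPM after poly(I:C) (log2 0.32, SE 0.11, adjusted p = 0.185). The highest value came from poly(I:C) replicate 1, which also held the highest choroid plexus marker sum; the part of those cells in it was not tested. Psma5 was at 48.7, 40.4 and 43.8 CPM and at 53.5, 54.2 and 51.9 CPM (log2 0.26, SE 0.10, adjusted p = 0.199). These genes, Psma3 (log2 0.24, adjusted p = 0.205) and Psma8 were the 4 alpha members whose groups did not overlap, all in the higher direction, beside 14% of all tested genes.

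Psma8, the alpha4 variant of testis proteasomes, had the lowest level of the 47 members at 1.13 ± 0.14 CPM per kb in saline. Its counts were 71, 65 and 57 after saline and 108, 84 and 98 after poly(I:C), and the fitted log2 value was 0.55 (SE 0.27, adjusted p = 0.278), the largest among constitutive members and the least precise but for Psmg4. Its transcript was 76.1% identical over 673 aligned bases to that of Psma7, which had between 2093 and 2461 counts a library.

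The constitutive beta ring had 7 members, 0 of them called, with log2 differences between −0.21 and 0.15 and a median of 0.00058. Groups overlapped in all 7. Psmb3, a structural subunit, was at 68.6, 56.5 and 50.2 CPM after saline and 45.7, 55.7 and 49.8 CPM after poly(I:C) (log2 −0.21, SE 0.14, adjusted p = 0.381). Its difference came with high saline and low poly(I:C) values in the first replicates, and was 0.0077 with both of these libraries left out.

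The 19S cap had 17 members in these data, and 0 were called. The 6 ATPases (Psmc1 to Psmc6), which unfold substrates, had log2 differences between −0.16 and 0.18. Psmc3 was at 141 ± 7.48 and 126 ± 12.1 CPM (log2 −0.16, SE 0.09, adjusted p = 0.330), and Psmc6 at 61.9 ± 2.21 and 70.3 ± 11.8 CPM (log2 0.18, SE 0.13, adjusted p = 0.408), with 83.4 CPM in the first of the poly(I:C) libraries and 60.7 and 66.9 CPM in the other two. Without that first library the Psmc6 log2 value was 0.07. The 11 non-ATPases, among them the ubiquitin receptor Psmd4 and the deubiquitinase Psmd14, had log2 differences between −0.20 and 0.23. Psmd3, a scaffold subunit of the lid, was at 108, 115 and 109 CPM after saline and 86.2, 107 and 95.9 CPM after poly(I:C), with no overlap and a log2 difference of −0.20 (SE 0.10, adjusted p = 0.267), which was −0.10 without poly(I:C) replicate 1. Psmd12, another lid subunit, was at 57.8, 58.8 and 56.1 CPM after saline and 67.0, 59.6 and 63.2 CPM after poly(I:C) (log2 0.14, SE 0.08, adjusted p = 0.335). The highest upper 95% bound among these 17 log2 differences was 0.65, for Psmd14, under the fitted differences of the PA28 genes. That bound still reached into the intervals of Psme1 (0.47 to 1.01), Psme2b (0.48 to 0.97) and, barely, Psme2 (0.65 to 1.06).

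The activators outside the interferon-inducible pair were not called. Psme4 (PA200), a large activator, was at 99.9, 90.8 and 80.7 CPM after saline and 119, 93.0 and 116 CPM after poly(I:C) (log2 0.27, SE 0.13, adjusted p = 0.258), and the groups overlapped. Psme3, the PA28 gamma subunit of the nucleus, related in sequence to Psme1 and Psme2, was at 75.7 ± 3.96 and 72.8 ± 1.08 CPM. The 95% interval of its log2 difference, from −0.23 to 0.12, did not reach those of Psme1 (0.47 to 1.01) or Psme2 (0.65 to 1.06).

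The 7 dedicated assembly chaperones, Psmg1 to Psmg4 for the core and Psmd5, Psmd9 and Psmd10 for the 19S base, had 0 called members and log2 differences between −0.35 and 0.23. Psmd9 had the lowest fitted difference of the 47 members. It was at 19.3, 19.6 and 17.8 CPM after saline and 13.0, 16.9 and 14.5 CPM after poly(I:C) (1.28-fold lower, log2 −0.35, SE 0.14, adjusted p = 0.216), and the groups did not overlap. Psmg3 was at 12.4 ± 0.499 and 10.3 ± 2.06 CPM (log2 −0.27, SE 0.18, adjusted p = 0.396), and its log2 value was −0.10 without poly(I:C) replicate 1. Psmg2 had a log2 difference of 0.17 (adjusted p = 0.416) with groups that did not overlap.

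Other tools drew the line elsewhere. DESeq2 called Psme1, Psme2 and Psme2b and no other member, where 3.76% of its tested genes were called higher and 3.03% lower. Limma-voom with quality weights called 8 members higher, adding Psmb8, Psmb9, Psma4, Psma5 and Psme4 to the PA28 genes, and Psmd9 lower, where it called 8.61% of all genes higher and 10.9% lower. All 6 interferon-inducible members kept a positive difference in every one of the 14 alternative fits. Of the 41 constitutive members, 25 likewise kept their direction in all 14.

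Genes around the proteasome, which the symbol rule leaves out, were read from lists. Over all 14727 tested genes, 0.957% were called in either direction and 7520 genes had a positive difference. Of 13 accessory and assembly genes 0 were called, and 7 had a positive difference. Pomp, the maturation factor of the core and of the immunoproteasome in particular, was at 65.6, 65.3 and 59.1 CPM after saline and 76.5, 79.2 and 72.3 CPM after poly(I:C) (log2 0.26, SE 0.08, adjusted p = 0.172). Akirin2, which carries proteasomes into the nucleus, and Adrm1, a ubiquitin receptor of the 19S cap, were at the low side with log2 differences of −0.36 (adjusted p = 0.151) and −0.33 (adjusted p = 0.190). In the axis of NRF1 (Nfe2l1), the factor that restores proteasome genes when the protease is inhibited, 0 of 13 genes were called and 4 had a positive difference. The smallest p there belonged to Bach1 (log2 −0.27, adjusted p = 0.198), Keap1 (0.25, adjusted p = 0.212) and Mafg (−0.32, adjusted p = 0.258). Of 12 ubiquitin genes and shuttle receptors 0 were called. Sqstm1, the autophagy receptor p62, was at 271 ± 14.9 and 223 ± 5.63 CPM (log2 −0.28, adjusted p = 0.155), followed by Ubqln4 (−0.31, adjusted p = 0.173) and Ubqln2 (−0.30, adjusted p = 0.177).

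Of 15 regulators on the interferon side 0 were called lower, beside 0.0747% of all tested genes. Nlrc5, Stat2 and Irf9 were among those called higher, and each had a larger difference than any proteasome gene. Nlrc5, the transactivator of MHC class I genes, went from 13.1, 5.72 and 9.20 CPM to 47.3, 43.1 and 42.2 CPM (4.73-fold, adjusted p = 0.0185), and its call was lost without saline replicate 3 (adjusted p = 0.130) and without poly(I:C) replicate 1, 2 or 3 (adjusted p = 0.0630, 0.0589 and 0.0977). Stat2 was 3.32-fold higher (adjusted p = 0.00108). Irf1, an inducer of the immunoproteasome genes, was at 96.9 ± 10.8 and 139 ± 15.4 CPM. It missed the threshold in edgeR (log2 0.52, SE 0.12, adjusted p = 0.121). DESeq2 (adjusted p = 0.0215) and limma-voom (adjusted p = 0.0209) called it, where they called 3.76% and 8.61% of their tested genes higher. The receptor genes Ifngr1, Ifngr2, Ifnar1 and Ifnar2 were not called in edgeR (log2 between −0.25 and 0.03).

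Downstream of the proteasome, the class I loading list had 1 of 13 genes called, Tap1, and its call was lost without saline replicate 3 (adjusted p = 0.101) and without poly(I:C) replicate 3 (adjusted p = 0.0809). All 13 had a positive difference, with a median log2 of 0.49, and 10 of the 13 had groups that did not overlap in the higher direction. Over all tested genes the shares were 0.883% called higher and 14% separated in that direction, and 7520 of 14727 had a positive difference.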

How the data were processed

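RNA-seq libraries of 6 samples were analysed, 3 labelled saline and 3 labelled poly(I:C), grouped by their titles. The authors deposited raw counts of reads per gene symbol, with a column for each library and no normalisation or pooling. The submitters' processing notes name the tools HTSeq, HISAT2 and fastp and the build GRCm39; the labels state no version, annotation or strand setting. Per the labels' protocols, Smarter full-length cDNA was tagmented with Nextera XT, which does not mark strand, so reads of overlapping genes cannot be told apart. PCR reads without molecular identifiers are not independent molecules.

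Differences were fitted with edgeR 4.0.16 in R 4.3.3. Genes passing filterByExpr within groups (14727 of 23491) were scaled by TMM and tested with the quasi-likelihood F test over all 6 libraries, with Benjamini-Hochberg adjustment over all tested genes and calls at an adjusted p under 0.05. The SE was obtained as the size of the log2 difference over the root of F, and 95% intervals use the fit's degrees of freedom. CPM is TMM-scaled. Within-library read ratios had 0.5 added to each count and were compared with a two-sided exact permutation test. The scripts were tested on simulated data. Library totals were between 33710545 and 34899835 counts. Replicates differed by more than counting noise (chi-square per gene between 22.1 and 123), so none was treated as a duplicate. The labels do not say whether replicates were separate animals, so p-values measure the spread between these libraries, which may be technical.

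The members and gene lists were chosen with earlier results of these data known. Values are given for the 6 immunoproteasome members, the 3 subunits they replace, called members or the 2 with the smallest p in each other role group, and called members or the 3 with the smallest p in each pathway list. Psma3, Psma8, Psmg2, Irf1, the interferon receptors, Tap2, Emc9, Rnf31 and 9930111J21Rik1 were chosen after their values were seen. Transcript lengths came from GENCODE M21 and promoter windows from RefSeq, both on GRCm38, a build other than that of the counts; neither was used to recount reads. Alternatives were RLE (DESeq2 size factors) and total-count scaling, no filter, a stricter filter (5 CPM or more in at least 3 libraries), limma-voom with quality weights (limma 3.58.1), DESeq2 1.42.0, a replicate block, and fits without single libraries or without the first library of each group. One gene of the interferon list and a motif search are not reported here. Summing Psme2 and Psme2b was added after seeing the data.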

Additional observations from a re-analysis of the deposited data

How the results depend on the processing

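Of the 3 calls among members, those of Psme2 and Psme2b held under RLE and total-count scaling, no filter, the stricter filter, DESeq2 and limma-voom, and Psme1 was lost under RLE scaling (adjusted p = 0.0526). Leaving out single libraries moved the members called higher between 0 and 3, likewise for the interferon-inducible members, and all calls between 51 and 183; with fewer samples a lower count follows in part from the construction. The log2 difference of the Psmb10 to Psmb7 ratio ranged from −0.020 to 0.13 over these. With the first library of each group left out there were 569 calls, 5 members higher, all 5 inducible, and an inducible median of 0.82. Limma-voom gave 2876 calls, with 8 members higher, 5 of them inducible, and 1 lower, and DESeq2 gave 1005 calls, against 141 in edgeR. The cause of these shifts was not tested. Total-count scaling put the constitutive median at 0.13 and moved the median of all tested genes alike, from 0.0098 to 0.085, so sign changes there follow that common shift. Of the 41 constitutive members, 25 kept their direction in all 14 alternative fits, and not every member that turned is listed next. Among the genes picked for this check, signs turned as follows. Psmb5 was 0.041 with total-count scaling, 0.0034 with the stricter filter, between −0.13 and 0.026 over the fits without 1 library, and 0.016 without the first libraries; Psme3 was 0.018 and 0.015 with total-count scaling and without the first libraries; and without the first libraries Psmb6 was 0.049, Psmb3 0.0077 and Itgam 0.030. Without 1 library Cx3cr1 ranged from −0.20 to 0.015, Itgam from −0.17 to 0.0024 and Emc9 from −0.092 to 0.25. The replicate numbers are shared between groups but nothing says that they pair samples. Deviations of same-numbered libraries correlated at 0.15, −0.09 and 0.25, and those of differently numbered libraries between −0.43 and 0.37. A replicate block gave 260 calls and an adjusted p of 0.0584 for Psme1, and Psme2 and Psme2b were called with it. Differences of about 1.2-fold, as in the alpha ring, were not called by edgeR.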

Other observations

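Genes whose names begin with Psm but fall outside the symbol rule showed no separation of the groups. Psme3ip1, which encodes a partner of PA28 gamma, was at 39.3 ± 0.94 CPM after saline and 39.6 ± 3.62 CPM after poly(I:C) (SD, n = 3 each). Psmf1, the proteasome inhibitor PI31, was at 29.6 ± 2.34 and 28.3 ± 0.60 CPM. Psmc3ip, which acts in meiotic recombination, had 129, 333 and 304 counts after saline and 142, 264 and 194 after poly(I:C), with the lowest count of each group in its first library. In sum over the 41 constitutive members, libraries stood between 2461 and 2714 CPM after saline and between 2562 and 2656 CPM after poly(I:C), which overlapped. The sum over the 6 inducible members was 410, 335 and 328 CPM after saline and 510, 553 and 506 CPM after poly(I:C).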
